A study of Mus musculus with 14 samples.

Results

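The genes described here are 54 genes of the DNA replication machinery and of nucleotide supply, followed in microglia sorted from mouse cortex. They were listed by name for their function, by a rule that used no measured value, although earlier results of these data were known. Each was read from the array row annotated to its symbol alone, and of several such rows that with the highest overall mean was taken. All 54 were measured, among 19938 genes in all.

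The study asked how microglia, the resident macrophages of the brain, respond to ischaemia and reperfusion (I/R), and what Toll-like receptor 4 (TLR4) contributes to that response. All mice were male C57BL/6J aged 12 to 14 weeks. The middle cerebral artery was occluded for 15 min by a filament and reperfused for 72 h, or sham surgery was done, under isoflurane. RNA of microglia sorted from the cortex of the operated side was hybridised to Affymetrix gene arrays, with 1 sample on each of 14 arrays. There were 4 groups. In wild type both surgeries had 4 arrays, lettered A to D, and in TLR4-/- both had 3, lettered B, C and D for I/R and A, B and D for sham surgery. The titles of the I/R samples carry the abbreviation IPC, which the sources used here do not explain, and the treatment label was followed. How the TLR4-/- allele was made and which markers defined the sort is not given in the sources used here. Nor do the labels tie each sample to its own animal, so p-values measure only how far these samples spread, and part of that spread may be technical.

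Values are log2 signals, so a difference of 1 is a 2-fold change, and levels are compared between samples and never between genes. The 95th percentile of 1027 olfactory receptor genes, 4.73, was taken as background. Changes were tested with limma over all 19938 genes, and a gene was called at a Benjamini-Hochberg adjusted p under 0.05. The Tlr4 row read 8.14 to 8.92 on the wild-type arrays and 7.62 to 8.47 on the TLR4-/- arrays, and since the deleted part and the probe positions are not given, it does not check the genotype labels. Across all genes, wild-type sham array C correlated with its own group at r between 0.981 and 0.987 and with the TLR4-/- sham arrays at 0.987 to 0.992. TLR4-/- I/R array D correlated with its own group at 0.985 to 0.990 and with the wild-type I/R arrays at 0.990 to 0.992. The lean to the other genotype was smaller in their group-mates but ran the same way, with mean correlations of 0.9857 to 0.9892 against 0.9855 to 0.9877 within the group for the other wild-type sham arrays, and 0.987 and 0.9886 against 0.9858 and 0.9881 for the other TLR4-/- I/R arrays. Counts are also given without these 2 arrays.

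The sorted cells carried microglial RNA. None of the 11 measured microglial markers, among them P2ry12 and Tmem119, was below background in any group, and their mean was 11.28 to 11.38 on the sham arrays and 10.89 to 11.07 on the I/R arrays of both genotypes. Of these markers 8 fell in wild type and 6 in TLR4-/-, against 3.63% and 3.13% of all genes called lower. Markers of monocytes moved the other way. Of the 10 measured, 8 rose in wild type and 6 in TLR4-/-, against 6.15% and 5.04% of all genes called higher. Their mean was 5.06 to 5.21 after sham surgery and 6.82 to 7.40 after I/R in wild type, and 4.82 to 4.99 and 6.69 to 6.80 in TLR4-/-. Ccr2, the chemokine receptor of inflammatory monocytes, read 5.80 to 6.05 after sham surgery and 6.13 to 6.69 after I/R in wild type, and 5.49 to 5.98 and 5.48 to 5.69 in TLR4-/-, and was not called. Group means of Chil3 were below background in all 4 groups. The group means of 5 of 6 neutrophil markers, 6 of 8 T and NK cell markers and 4 of 6 marrow progenitor markers (Kit, Elane, Prtn3 and Ctsg) were also below background throughout, and no gene of those lists was called. Of 6 border macrophage markers only F5 was below background throughout. The mean of the 6 was 6.70 to 7.13 in the 4 groups, and none was called after I/R. Single arrays could still differ: the mean of the neutrophil markers was 4.66 on wild-type I/R array C and 3.21 to 3.47 on the other wild-type I/R arrays, and that array was also the highest for the monocyte markers (7.40) and the border macrophage markers (7.41). Among brain and vessel markers, Pecam1 and Slc1a3 fell in both genotypes, and Cspg4, Cdh5 and Flt1 rose in wild type, out of 5 endothelial, 5 astrocyte and 6 oligodendrocyte lineage genes. Flt1 had group means below background in all 4 groups, so its change lies within background signal. The part of monocytes or other cells in the changes below was not tested. In RNA of a sorted pool, more replicating cells and more of a transcript per cell cannot be told apart.

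Before a cell copies its DNA, the origin recognition complex, Cdc6 and Cdt1 load the Mcm2 to Mcm7 ring onto origins in G1, and kinases then recruit Cdc45 and the GINS complex to turn the ring into an active helicase. Polymerase alpha with primase lays down primers, polymerases delta and epsilon extend them on a Pcna clamp, and Fen1 and Lig1 finish the lagging strand, while ribonucleotide reductase and thymidylate synthase supply the nucleotides. Many of these genes are transcribed at the boundary of G1 and S phase through E2F sites in their promoters, and adult microglia divide little at rest but proliferate after injury.

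Promoter sequence was therefore set beside the changes. RefSeq (GRCm38.p6) windows from 250 bases before to 50 bases after the transcription start were at hand for 45 of the 54 genes. They were searched on both strands for the E2F letters TTTCCCGC, TTTCGCGC, TTTGGCGC and TTTGCCGC, whose matches can overlap. At least 1 match stood in 18 of the 45 (40.0%), in 7 of 39 other replication genes with a window (17.9%) and in 543 of the 15614 measured genes with one (3.48%). The other replication genes were searched as listed, measured or not, and 1 of the 7, Ssrp1, had no array row of its own. Among the genes called higher in wild type 15 of 35 (42.9%) held a match, and among those not called 3 of 10 (30.0%). A match is a run of letters and not a shown binding site. Shown here are the 250 bases before the start of Mcm6, which held the most matches among those shown, of Cdc6, Pola1 and Hells, each with 1, and of Rrm2, the gene with the largest wild-type change, which held none. They are written 5′ to 3′ on the gene's strand with the E2F letters in capitals, at chr1:128359706-128359955 (minus strand) for Mcm6, chr11:98907901-98908150 (plus) for Cdc6, chrX:93632156-93632405 (minus) for Pola1, chr19:38930740-38930989 (plus) for Hells and chr12:24708004-24708253 (plus) for Rrm2.
Mcm6: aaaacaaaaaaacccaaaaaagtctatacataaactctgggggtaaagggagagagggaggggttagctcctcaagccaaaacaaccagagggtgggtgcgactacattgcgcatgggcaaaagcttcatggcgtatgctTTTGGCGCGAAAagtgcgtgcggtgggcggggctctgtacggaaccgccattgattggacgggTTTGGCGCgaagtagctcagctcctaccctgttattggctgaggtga
Cdc6: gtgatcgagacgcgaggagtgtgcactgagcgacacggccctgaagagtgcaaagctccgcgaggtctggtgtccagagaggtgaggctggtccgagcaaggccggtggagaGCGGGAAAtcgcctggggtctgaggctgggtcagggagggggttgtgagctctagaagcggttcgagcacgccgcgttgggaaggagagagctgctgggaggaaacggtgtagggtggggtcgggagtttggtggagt
Pola1: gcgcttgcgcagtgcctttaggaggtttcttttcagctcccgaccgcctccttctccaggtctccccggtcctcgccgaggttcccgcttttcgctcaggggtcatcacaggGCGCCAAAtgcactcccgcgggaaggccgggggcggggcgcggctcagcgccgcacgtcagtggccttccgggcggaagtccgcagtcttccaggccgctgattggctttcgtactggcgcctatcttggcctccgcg
Hells: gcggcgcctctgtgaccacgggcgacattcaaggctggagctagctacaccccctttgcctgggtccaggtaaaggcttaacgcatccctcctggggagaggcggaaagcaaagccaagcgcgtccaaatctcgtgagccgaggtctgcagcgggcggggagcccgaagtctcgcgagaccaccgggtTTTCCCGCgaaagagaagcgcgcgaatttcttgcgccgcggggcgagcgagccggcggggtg
Rrm2: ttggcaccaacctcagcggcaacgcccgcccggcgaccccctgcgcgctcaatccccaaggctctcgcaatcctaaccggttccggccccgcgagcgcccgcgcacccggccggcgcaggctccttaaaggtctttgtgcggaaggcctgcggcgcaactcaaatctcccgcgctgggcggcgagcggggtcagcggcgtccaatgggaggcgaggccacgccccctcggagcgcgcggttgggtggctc
The Mcm6 stretch held 3 matches, of which the first 2 overlap and are written as a single run of capitals. No match in the Rrm2 stretch says only that these letters are not in it.

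Most replication genes rose after I/R in both genotypes. In wild type 42 of the 54 (77.8%) were called higher and 0 lower, where 6.15% of all genes were called higher and 3.63% lower. In TLR4-/- 44 of 54 (81.5%) were called higher and 0 lower, where 5.04% of all genes were higher and 3.13% lower. The median log2 change of the 54 was 1.23 in wild type (range 0.18 to 3.40) and 1.06 in TLR4-/- (range −0.05 to 2.87), beside −0.06 and −0.03 over all genes. Of the called genes, 31 in wild type and 32 in TLR4-/- rose at least 2-fold, as did 2.36% and 2.3% of all genes. Every I/R array lay above every sham array for 48 of the 54 genes in wild type and 45 in TLR4-/-, against 7.78% and 11.1% of all genes.

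Averaged over the 54 genes, the sham arrays read 5.79 to 6.06 in wild type and 5.77 to 5.95 in TLR4-/-, and the I/R arrays 7.02 to 7.25 and 6.92 to 7.01. The I/R and sham arrays did not overlap in either genotype. The sham mean was below background for 11 genes in wild type and 10 in TLR4-/-, so their folds are measured against background signal, while no gene had an I/R mean below it. Without wild-type sham array C and TLR4-/- I/R array D, 43 genes were called in wild type, where Rpa3 was lost and Chtf18 and Tk1 were gained, and 41 in TLR4-/-, where Dnmt1, Pola2 and Rpa2 were lost. Without wild-type I/R array C, the array with the highest neutrophil and monocyte marker signal, 40 genes were called in wild type with a median of 1.22, and Orc1 and Rpa3 were lost. With all arrays, 19 of 19 measured genes of mitosis, the step after replication, rose in each genotype, with medians of 3.20 and 2.82.

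**Figure D1:**
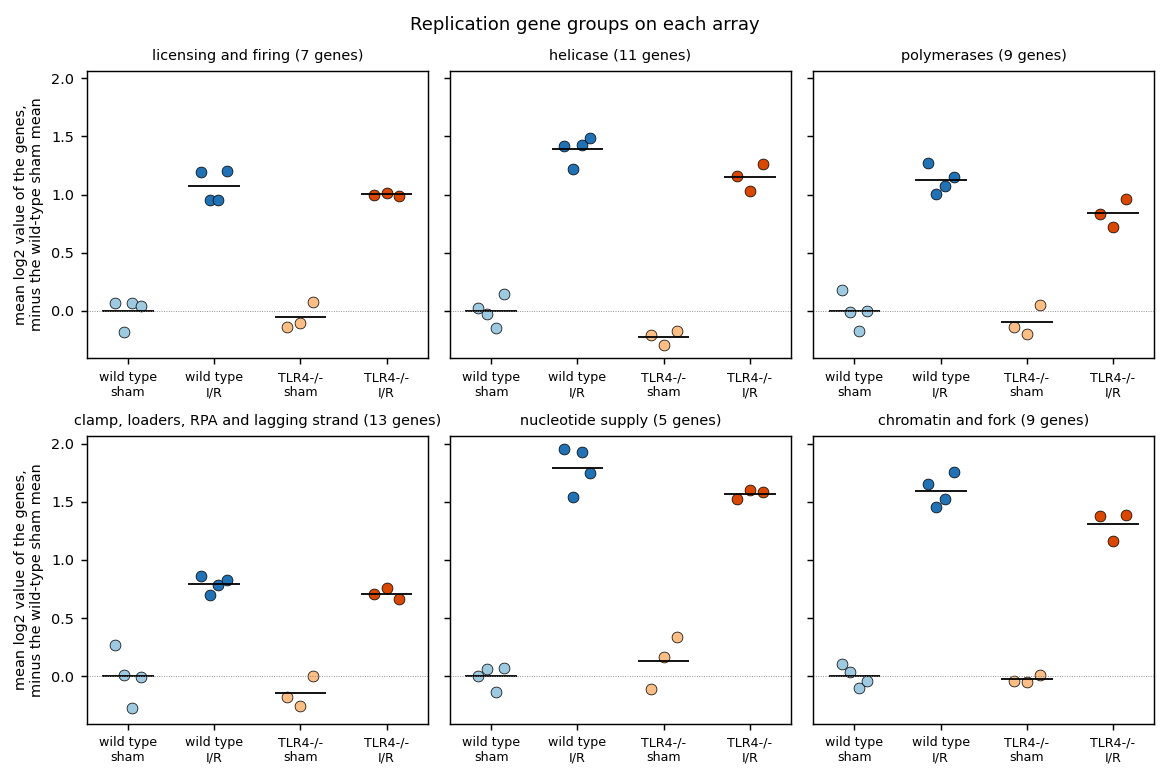
Mean log2 value of each role group on each array, minus the wild-type sham mean of that group, with 1 point per array and a line at the group mean. In each of the 6 panels the I/R arrays of a genotype lie above its sham arrays.

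Licensing and firing factors rose in both genotypes: 6 of 7 were called higher in wild type (median change 0.95) and 7 of 7 in TLR4-/- (median 1.00). Mcm10, which helps to turn the loaded helicase into a moving fork, gave the largest wild-type change. With arrays in alphabetical order here and below, it read 4.38, 4.0, 4.36 and 4.45 after sham surgery and 6.69, 6.00, 5.99 and 6.15 after I/R in wild type. In TLR4-/- it read 4.37, 4.76 and 4.45 after sham surgery and 5.83, 5.53 and 6.02 after I/R. Every I/R array was above every sham array, and sham signal was at about background. The log2 change of Mcm10 was 1.91 (SE 0.16, limma adjusted p = 4.34e-07) in wild type and 1.27 (SE 0.19, adjusted p = 0.000324) in TLR4-/-.

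Gmnn, or geminin, blocks Cdt1 so that origins are not licensed again. It read 4.44, 4.20, 4.47 and 4.44 on the wild-type sham arrays and 5.96, 6.03, 5.92 and 6.48 on the I/R arrays. The TLR4-/- arrays read 4.0, 3.98 and 4.65 after sham surgery and 5.16, 6.00 and 6.01 after I/R. These groups did not overlap either, although I/R array B of TLR4-/- was the lowest of the I/R arrays. Gmnn rose by 1.71 (SE 0.20, adjusted p = 1.25e-05) in wild type and by 1.52 (SE 0.23, adjusted p = 0.000326) in TLR4-/-. Cdc6, the loader of the Mcm ring, rose by 1.38 and 1.00, but its TLR4-/- groups overlapped, with I/R array D at 5.22 and sham array D at 5.27. Cdt1, its partner in loading, changed by 0.46 in wild type (adjusted p = 0.0596, not called) and rose by 0.72 in TLR4-/-. Cdc7, the kinase that fires origins, rose by 0.70 and 0.95, Orc6 by 0.95 and 1.16, and Orc1, the largest subunit of the origin recognition complex, by 0.44 and 0.79. In wild type the Orc1 means were 4.32 after sham surgery and 4.76 after I/R, so its signal was at about background (4.73) even after I/R.

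The Orc1 call in wild type (adjusted p = 0.0363) was lost when any of I/R arrays A, C and D or sham arrays B and D was left out. In TLR4-/- the call of Cdt1 was lost without sham array A, and that of Cdc6 without I/R array C or sham array A.

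Nearly every helicase gene rose. In each genotype 10 of 11 genes were called higher, with medians of 1.47 in wild type and 1.45 in TLR4-/-. Mcm6, a subunit of the ring whose promoter is printed above, read 6.82, 6.39, 6.51 and 6.67 on the wild-type sham arrays and 8.53, 8.27, 8.57 and 8.60 on the I/R arrays. In TLR4-/- the sham arrays read 6.34, 5.92 and 6.23 and the I/R arrays 8.62, 8.25 and 8.41. The groups were far apart relative to the spread within them. Mcm6 rose by 1.89 (SE 0.13, adjusted p = 2.99e-08) in wild type and 2.26 (SE 0.15, adjusted p = 8.67e-08) in TLR4-/-. The other ring subunits rose in wild type by 1.41 for Mcm2, 0.96 for Mcm3, 1.21 for Mcm4, 1.50 for Mcm5 and 1.47 for Mcm7. Their TLR4-/- changes were 1.36, 0.98, 1.19, 1.50 and 1.55 in the same order.

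Gins2 belongs to the GINS complex, which binds the ring together with Cdc45. It read 6.74, 7.33, 6.86 and 6.84 after sham surgery and 8.75, 8.76, 8.84 and 8.74 after I/R in wild type. The TLR4-/- values were 6.43, 6.71 and 6.97, and 8.34, 8.37 and 8.73. Again no I/R array fell among the sham arrays. Its log2 change was 1.83 (SE 0.14, adjusted p = 1.51e-07) in wild type and 1.78 (SE 0.17, adjusted p = 2.29e-06) in TLR4-/-. Cdc45 rose by 1.77 and 1.45, and Gins1 by 1.71 and 2.32. Gins3, a further subunit of the same complex, was not called, at 0.29 (adjusted p = 0.194) and −0.05 (adjusted p = 0.919). Mcm8, a relative of the ring subunits with a role in recombination repair, rose by 1.23 and 0.77, and its TLR4-/- call was lost without I/R array B.

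**Figure D2:**
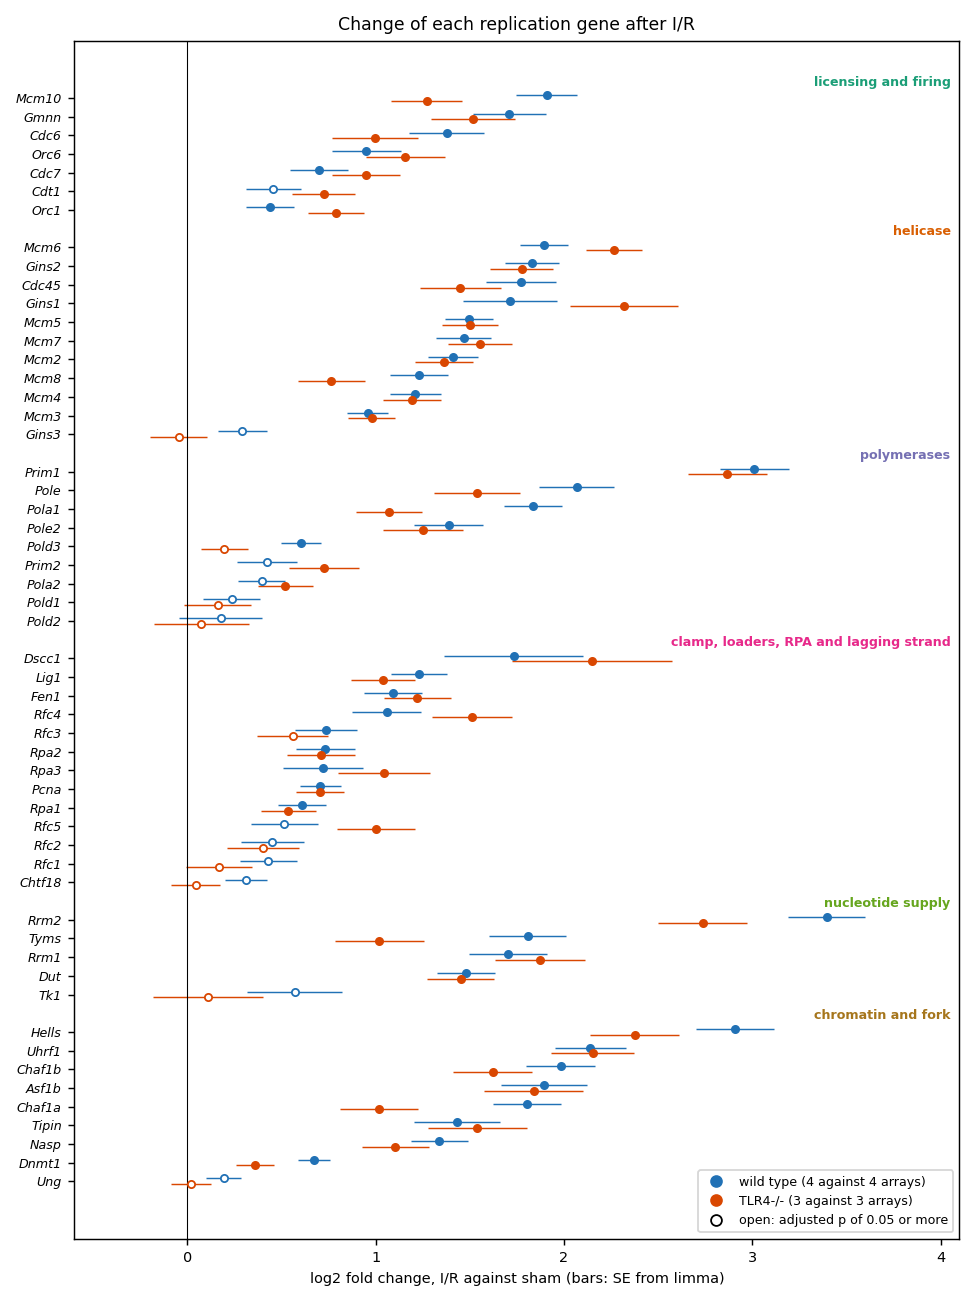
Log2 change after I/R of each of the 54 genes, grouped by role, for wild type (blue) and TLR4-/- (orange), with standard errors from limma as bars and open points where the adjusted p was 0.05 or more. Rrm2, Prim1 and Hells lie farthest to the right in wild type, at 3.40, 3.01 and 2.91, and Gins3, Pold1, Pold2, Rfc1, Rfc2, Chtf18, Tk1 and Ung are open in both genotypes.

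The polymerase genes were divided. Of 9, 5 were called higher in wild type (median 0.60) and 6 in TLR4-/- (median 0.73). Prim1, the catalytic subunit of primase, read 5.57, 4.83, 5.33 and 5.50 on the wild-type sham arrays and 8.46, 8.30, 8.18 and 8.33 on the I/R arrays. Its TLR4-/- values were 5.47, 4.50 and 4.99 after sham surgery and 7.86, 7.74 and 7.96 after I/R. The I/R arrays were close together and the sham arrays more spread. Prim1 rose by 3.01 (SE 0.18, adjusted p = 9.06e-09) in wild type, which is 8.06-fold, and by 2.87 (SE 0.21, adjusted p = 1.86e-07) in TLR4-/-, which is 7.3-fold. Prim2, the other primase subunit, changed by 0.42 in wild type (adjusted p = 0.113, not called) and rose by 0.73 in TLR4-/- (adjusted p = 0.0208). That call was lost when any of I/R arrays B and D or sham arrays A and D was left out.

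Pole, the catalytic subunit of the leading-strand polymerase epsilon, read 4.46, 3.70, 3.80 and 3.79 on the wild-type sham arrays and 6.48, 5.73, 6.09 and 5.72 on the I/R arrays. On the TLR4-/- arrays it read 3.94, 4.02 and 4.20 after sham surgery and 5.82, 5.16 and 5.80 after I/R. All sham values were below background and all I/R values above it. The change was 2.07 (SE 0.20, adjusted p = 1.75e-06) in wild type and 1.54 (SE 0.23, adjusted p = 0.000341) in TLR4-/-. Pole2, its accessory subunit, rose by 1.39 and 1.25. Pola1, the catalytic subunit of polymerase alpha, rose by 1.83 and 1.07, and Pola2, which tethers it, changed by 0.39 in wild type (adjusted p = 0.0588, not called) and rose by 0.52 in TLR4-/- (adjusted p = 0.0355). Leaving out any of TLR4-/- I/R arrays C and D or sham arrays A and B lost the Pola2 call.

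Polymerase delta copies the lagging strand. Pold1, its catalytic subunit, read 6.03, 6.02, 5.59 and 6.05 after sham surgery and 6.23, 6.28, 5.98 and 6.14 after I/R in wild type. In TLR4-/- it read 5.48, 6.00 and 5.85, and 5.74, 5.77 and 6.31. The groups overlapped in both genotypes. Its changes were 0.23 (SE 0.15, adjusted p = 0.399) and 0.16 (SE 0.18, adjusted p = 0.697). Pold2 gave 0.18 (adjusted p = 0.69) and 0.07 (adjusted p = 0.923), and neither gene was called. Pold3 rose by 0.60 in wild type (adjusted p = 0.00127) and stood at 0.20 in TLR4-/- (adjusted p = 0.424). The difference between these Pold3 changes was not called.

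Clamp, clamp loader and lagging-strand genes rose in 9 of 13 cases in each genotype, with medians of 0.72 and 0.71. Dscc1, part of the alternative clamp loader that serves sister chromatid cohesion, had the widest spread of the genes given by array. It read 5.11, 4.62, 4.31 and 3.44 on the wild-type sham arrays and 6.45, 5.80, 5.97 and 6.18 on the I/R arrays. In TLR4-/- it read 4.08, 4.56 and 4.12 after sham surgery and 6.18, 7.58 and 5.46 after I/R. Groups did not overlap, but the I/R arrays of TLR4-/- differed among themselves by more than 2 log2 units. Dscc1 rose by 1.73 (SE 0.37, adjusted p = 0.00519) in wild type and 2.15 (SE 0.42, adjusted p = 0.00377) in TLR4-/-. Chtf18, its partner in that loader, was not called, at 0.31 (adjusted p = 0.103) and 0.04 (adjusted p = 0.909).

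Lig1, the ligase that joins Okazaki fragments, read 6.34, 6.75, 5.98 and 6.59 after sham surgery and 7.86, 7.45, 7.69 and 7.58 after I/R in wild type. The corresponding TLR4-/- values were 5.92, 6.26 and 6.25, and 7.16, 7.16 and 7.24. The I/R arrays were all higher. Lig1 rose by 1.23 (SE 0.15, adjusted p = 2.29e-05) in wild type and 1.04 (SE 0.17, adjusted p = 0.000813) in TLR4-/-. Fen1, the flap nuclease that acts just before it, rose by 1.09 and 1.22. Among the loader subunits Rfc4 rose in both genotypes, by 1.06 and 1.51. Rfc3 rose by 0.74 in wild type and stood at 0.56 in TLR4-/- (adjusted p = 0.0865), and Rfc5 stood at 0.52 in wild type (adjusted p = 0.0847) and rose by 1.00 in TLR4-/-. Rfc1 (0.43 and 0.17) and Rfc2 (0.45 and 0.40) were called in neither.

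The single-strand binding subunits Rpa1, Rpa2 and Rpa3 rose by 0.61, 0.73 and 0.72 in wild type and by 0.54, 0.71 and 1.05 in TLR4-/-. Several of these calls were lost when a single array was left out. In wild type the Rpa3 groups overlapped, and its call (adjusted p = 0.0407) was lost without any of the I/R arrays, without sham array B, C or D, or without TLR4-/- sham array A. In TLR4-/- the Rpa1 call was lost without any single array of that genotype, the Rpa2 call without any of I/R arrays C and D and sham arrays A and B, and the Rpa3 call without I/R array C or sham array B. Pcna, the clamp itself, rose by 0.71 in both genotypes (1.63-fold).

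Nucleotide supply held the gene with the largest change of all 54 in wild type. Of its 5 genes 4 were called higher in each genotype, with medians of 1.70 and 1.45. Rrm2, the small subunit of ribonucleotide reductase that is made for S phase, read 5.41, 4.69, 4.58 and 4.55 on the wild-type sham arrays and 8.50, 7.98, 8.33 and 8.00 on the I/R arrays. In TLR4-/- the sham arrays read 4.59, 5.34 and 5.39 and the I/R arrays 8.02, 7.69 and 7.81. A gap of more than 2 log2 units separated the groups in each genotype. Rrm2 rose by 3.40 (SE 0.20, adjusted p = 8.64e-09) in wild type, which is 10.5-fold against a sham mean near background, and by 2.74 (SE 0.24, adjusted p = 9.94e-07) in TLR4-/-, which is 6.67-fold. Rrm1, the large subunit, rose by 1.70 and 1.87.

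Tyms, thymidylate synthase, makes the thymidine nucleotide from deoxyuridylate. It read 6.34, 7.16, 6.16 and 6.96 after sham surgery and 8.51, 8.26, 8.47 and 8.61 after I/R in wild type. The TLR4-/- arrays read 6.64, 7.30 and 7.26, and 7.91, 8.36 and 7.97. There was no overlap, and the gap was smaller in TLR4-/-. Tyms rose by 1.81 (SE 0.20, adjusted p = 1.17e-05) in wild type and 1.02 (SE 0.24, adjusted p = 0.0119) in TLR4-/-, where the call was lost without I/R array C or sham array A. Dut, which removes dUTP from the pool, rose by 1.48 and 1.45.

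Tk1, the thymidine kinase of S phase, depended on the array row. Its row with the higher mean read 6.92, 7.24, 8.38 and 7.47 on the wild-type sham arrays and 8.44, 7.89, 8.32 and 7.63 on the I/R arrays, and the groups overlapped. That row changed by 0.57 (adjusted p = 0.186) in wild type and 0.11 (adjusted p = 0.894) in TLR4-/- and was not called. A second row, examined after the values had been seen, read 5.84, 6.02, 5.45 and 6.02 after sham surgery and 7.82, 7.60, 7.89 and 7.73 after I/R. In TLR4-/- it read 5.24, 6.07 and 5.31, and 6.78, 7.54 and 7.87. Over all array rows its changes were 1.93 (SE 0.24, adjusted p = 0.000256) and 1.86 (SE 0.27, adjusted p = 0.00155), and no I/R array fell among the sham arrays. Which row measures the Tk1 transcript was not settled here, so the size of its change and its call are uncertain. Rpa3 and Pcna also had a second row, and those changes had the sign of the first. The Pcna rows read nearly the same on every array, with overall means of 10.6617 and 10.6569, so the second is no separate evidence. RefSeq also lists pseudogenes of Pcna, and whether near-identical copies share its signal was not tested.

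**Figure D3:**
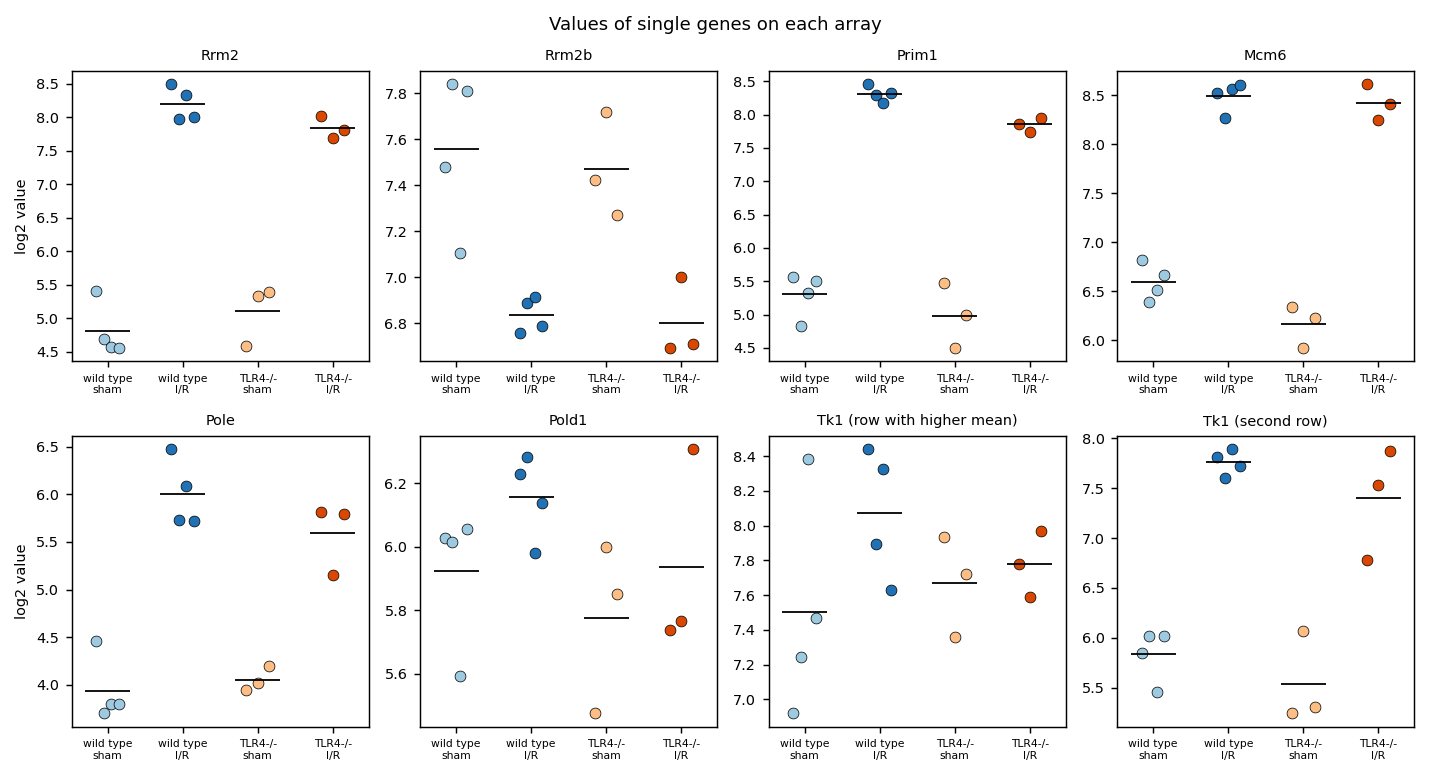
Log2 values of single genes on each array, with 1 point per array and a line at the group mean. Each panel has its own vertical axis, which does not start at 0. The panels for Rrm2, Prim1, Mcm6 and Pole show the I/R arrays above the sham arrays, that for Rrm2b shows them below, Pold1 overlaps, and the panels for the rows of Tk1 differ.

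Chromatin and fork genes, which rebuild nucleosomes and copy DNA methylation behind the fork, rose in 8 of 9 cases in each genotype, with medians of 1.80 and 1.54. Hells, a chromatin remodeller needed for DNA methylation, read 3.89, 3.60, 3.22 and 3.39 on the wild-type sham arrays and 6.41, 6.10, 6.36 and 6.85 on the I/R arrays. The TLR4-/- values were 3.34, 3.75 and 3.56 after sham surgery and 6.45, 5.92 and 5.41 after I/R. Sham signal was below background on every array and I/R signal above it. Hells rose by 2.91 (SE 0.21, adjusted p = 4.43e-08) in wild type and 2.38 (SE 0.24, adjusted p = 4.96e-06) in TLR4-/-.

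Uhrf1, which brings the maintenance methyltransferase Dnmt1 to newly copied DNA, read 5.10, 5.67, 5.52 and 5.07 after sham surgery and 7.98, 7.36, 7.15 and 7.44 after I/R in wild type. In TLR4-/- it read 5.18, 5.30 and 5.03, and 7.15, 7.07 and 7.74. The genotypes were alike in that all I/R arrays were above all sham arrays. Uhrf1 rose by 2.14 (SE 0.19, adjusted p = 6.63e-07) in wild type and 2.15 (SE 0.22, adjusted p = 5.61e-06) in TLR4-/-. Dnmt1 itself rose by 0.67 and 0.36, and its TLR4-/- call (adjusted p = 0.0329) was lost without any single array of that genotype. The histone chaperone genes Chaf1a, Chaf1b, Asf1b and Nasp rose by 1.80, 1.98, 1.89 and 1.34 in wild type and by 1.02, 1.62, 1.84 and 1.10 in TLR4-/-. Tipin, of the complex that protects the fork, rose by 1.43 and 1.54. Ung, which removes uracil from DNA, was not called, at 0.19 (adjusted p = 0.23) and 0.02 (adjusted p = 0.951).

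Calls coincided for 40 genes in both genotypes. Pold3 and Rfc3 were called in wild type and missed the threshold in TLR4-/-, Cdt1, Pola2, Prim2 and Rfc5 the reverse, and 8 genes were called in neither. The difference between the wild-type and TLR4-/- changes was called for 0 of the 54 genes in limma, and 6 had an unadjusted p under 0.05. Over all genes that test called 0% in either direction, and 762 genes had an unadjusted p under 0.05. Over all genes the wild-type change was the larger in 9291 and the smaller in 10647. Among the 54 it was the larger in 35 and the smaller in 19. This split depended on the arrays used: without TLR4-/- sham array D it was 26 and 28. Under the alternatives tried, the wild-type change was the larger in 26 to 37 genes. The differences ran from −0.61 (SE 0.38) for Gins1 to 0.79 (SE 0.31) for Tyms and 0.79 (SE 0.27) for Chaf1a, with an adjusted p of 1 for each. Pola1 (0.77, SE 0.23), Rrm2 (0.66, SE 0.31) and Mcm10 (0.64, SE 0.25) were next in size. Across the 54 genes the wild-type and TLR4-/- changes, which share no array, correlated at r = 0.894, and across all genes at r = 0.839. Genes are not independent replicates, so this is a description.

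**Figure D4:**
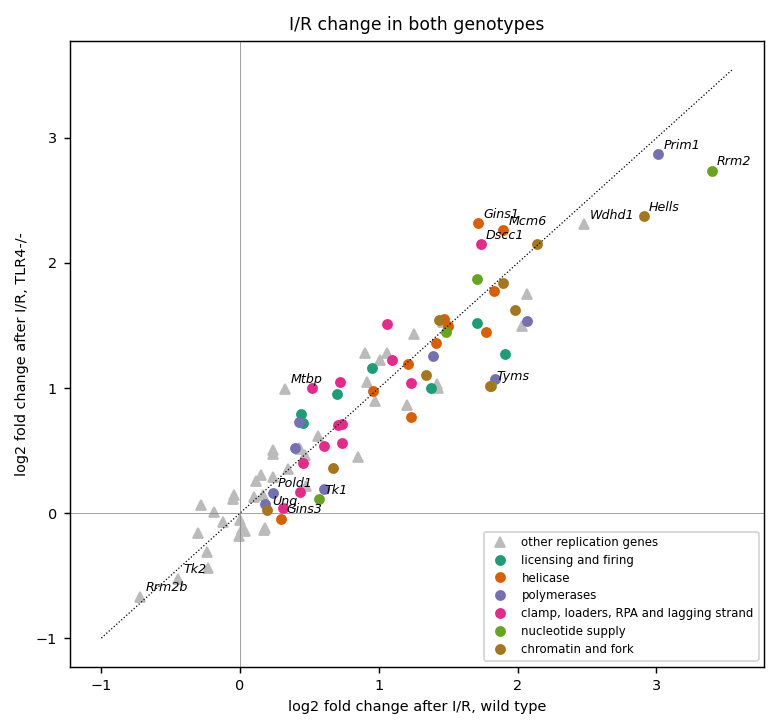
Log2 change after I/R in TLR4-/- against that in wild type for the 54 genes, coloured by role, and for 44 other replication genes (grey triangles), with the line of equal change dotted. The points of the 54 follow the line (r = 0.894), and Rrm2b and Tk2 lie below 0 on both axes.

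Levels were also compared between the genotypes directly. After sham surgery 0 of the 54 genes were called in limma, where 0% of all genes were called higher in TLR4-/- and 0.00502% lower. At an unadjusted p under 0.05 there were 6 of the 54 and 1045 of all 19938 genes. The TLR4-/- mean was below the wild-type mean for 35 of the 54, and for 9293 of all 19938 genes. Without wild-type sham array A it was below for 28 of the 54 and above for 26, with a median difference of −0.04. Under the alternatives tried it was below for 28 to 39 of them. With all arrays the median difference was −0.12 for the 54, beside 0.01 over all genes. After I/R again 0 were called, against 0.01% of all genes higher and 0.01% lower. An unadjusted p under 0.05 was reached by 12 of the 54 and by 1689 of all 19938 genes. The smallest limma adjusted p among the 54 was 0.406, for Chaf1a at −0.76 (SE 0.19). After I/R the TLR4-/- mean was the lower for 45 of the 54 genes, and for 8795 of all 19938 genes. The median difference was −0.20 for the 54, where the median over all genes was 0.03. This count after I/R among the 54 stayed between 40 and 49 under the alternatives tried, and was 40 without wild-type I/R array A. Orc1 and Dscc1 were the genes farthest the other way, at 0.39 and 0.30. For none of these differences was the test past its threshold, which does not show that the genotypes were alike.

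Other genes of replication and nucleotide supply, outside the 54, were called in smaller number. Of 44 measured, 16 (36.4%) were higher and 2 lower in each genotype, with median changes of 0.24 in wild type and 0.33 in TLR4-/-. Over all genes 6.15% were called higher and 3.63% lower in wild type, and 5.04% and 3.13% in TLR4-/-. The 2 lower genes are thus close to the share over all genes. The largest wild-type changes were those of Wdhd1, an adaptor that joins polymerase alpha to the helicase (2.48 and 2.31), Dna2, a nuclease of flap processing (2.07 and 1.75), and Ticrr, a factor of origin firing (2.03 and 1.50), all called in both genotypes. The sham means of Dna2 and Ticrr were below background in both genotypes, so their changes are measured against background signal. The lowest in wild type were Rrm2b, Tk2 and Donson, the last at −0.31 and −0.16 and not called.

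Rrm2b is the small subunit of ribonucleotide reductase that serves outside S phase, as Rrm2 does within it. It read 7.48, 7.84, 7.10 and 7.81 on the wild-type sham arrays and 6.76, 6.89, 6.92 and 6.79 on the I/R arrays. In TLR4-/- it read 7.42, 7.72 and 7.27, and 6.69, 7.00 and 6.71. All I/R arrays were below all sham arrays. Its log2 change was −0.72 (SE 0.15, adjusted p = 0.005) in wild type and −0.67 (SE 0.18, adjusted p = 0.0255) in TLR4-/-, where leaving out any of I/R arrays B and D or sham arrays A and B lost the call. Tk2, the mitochondrial thymidine kinase, was lower by −0.45 (adjusted p = 0.0423) and −0.53 (adjusted p = 0.046). The wild-type Tk2 call was lost without wild-type I/R array A, C or D, wild-type sham array A, B or D, TLR4-/- I/R array C or TLR4-/- sham array B. In TLR4-/- it was lost without any of the TLR4-/- sham arrays, TLR4-/- I/R arrays C and D, wild-type I/R arrays C and D, and wild-type sham arrays B and D.

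Of the origin complex genes outside the 54, Orc2 (0.23 and 0.29), Orc3 (0.00 and −0.06), Orc4 (−0.12 and −0.07) and Orc5 (0.04 and −0.14) were not called in either genotype. Nor were Gins4, given above, Mcm9 (0.01 and −0.13) and Mcmbp (−0.19 and 0.01).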

How the data were processed

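The deposited table held 35556 array rows for 14 samples. Its values are on the log2 scale, and per the submitters' processing notes the authors made them with RMA in the oligo package, a routine of background correction, quantile normalization and probe summary, with no version named. Array medians were 4.93 to 5.12, and nothing was normalized further. Arrays carry no read depth, and their number limits the precision. Gene names came from the platform annotation: 21789 rows had 1 symbol, 1621 several and 12146 none, and 999 genes had more than 1 row.

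lmFit and eBayes of limma 3.58.1 (R 4.3.3) fitted 1 model with 4 group means to all arrays, checked on simulated data, with Benjamini-Hochberg adjustment over 19938 genes. The 5 contrasts were I/R against sham in each genotype, the difference of these changes, and the genotypes after each surgery. The members, role groups and lists were chosen with earlier results of these data known. Values by array are given for the 2 genes of each role group with the largest wild-type change. Choosing by the wild-type change favours genes whose change was larger there than in TLR4-/-. Uncalled members and the 3 highest, the 3 lowest and any lower-called genes of the list of other replication genes are named. Remaining members are given by their changes. The values by array of Pold1, Rrm2b and Tk1, the single values of Cdc6 and the wild-type means of Orc1 were added after they were seen. So were the changes of Gins4, Mcm9 and Mcmbp. Dscc1, Gins2, Mcm4, Gmnn, Gins1, Rfc2, Pole, Prim2 and Tipin had no promoter window. Alternatives changed the groups fitted, eBayes options, array weights, centring, the background filter, the row per gene, the rows tested, the replicate letter as a block, and arrays left out.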

Additional observations from a re-analysis of the deposited data

Results flagged for a closer look

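Among 38 sets of 4 wild-type arrays examined, 4 held an array far from the other 3, and chance alone gives such a gap in about 5% of sets; groups of 3 arrays were not examined. Geminin (Gmnn) read 4.20 on wild-type sham array B, below the others, as did the mean of the licensing and firing genes on that array, at 4.78. Sham array A read 4.46 for Pole and 5.41 for Rrm2, above the other sham arrays for each gene.

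The second array rows of 3 genes, which the gene tests did not use, also rose. That of Tk1 changed by 1.93 in wild type and 1.86 in TLR4-/-, where the row used was not called. The second row of Rpa3 gave 0.57 and 0.65, and that of Pcna 0.71 and 0.71. For Pcna the rows read nearly the same on every array, so the second adds no separate evidence.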

How the results depend on the processing

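The number of the 54 genes called higher stayed between 40 and 46 in wild type and between 36 and 45 in TLR4-/- under the alternatives tried, and none was called lower, in the difference of changes or between the genotypes. Of the 42 genes called in wild type 40, and of the 44 in TLR4-/- 34, were called in every alternative that tested them. The labels do not say what the replicate letters mark, so the letters were not taken to pair samples. Same-lettered I/R and sham arrays deviated together at r between −0.063 and 0.13 in wild type and at 0.0491 and 0.1392 in TLR4-/-. Same-lettered arrays of different genotypes ran from −0.0987 to 0.2809, the highest for wild-type sham and TLR4-/- I/R arrays D. Arrays of different letters and groups ran from −0.2603 to 0.2373. With the letter as a block 45 and 44 genes were called. With arrays centred on their medians the calls over all genes were 1300 higher and 393 lower in wild type and 987 and 398 in TLR4-/-, against 1226 and 724, and 1004 and 624, and the 54 genes gave 44 higher in each. Uncalled TLR4-/- changes of 7 genes near 0 turned sign, and the cause was not tested. With single arrays left out they ran from −0.146 to 0.0539 for Gins3, −0.0238 to 0.273 for Pold1, −0.30 to 0.35 for Pold2, −0.0334 to 0.307 for Rfc1, −0.046 to 0.241 for Tk1 and −0.0683 to 0.0813 for Ung. Without wild-type sham array C and TLR4-/- I/R array D, Gins3 was 0.0539, Pold1 −0.0238 and Pold2 −0.30. With the replicate block Chtf18 was −0.0126 and Tk1 −0.0021, and with array weights Ung was −0.0103.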

Other observations

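The promoter windows of the mitosis genes were searched beside those of the replication genes. Of 16 mitosis genes with a window, 1 (6.25%) held the E2F letters, 10 (62.5%) held TTTGAA, the letters of the cell cycle homology region, and 13 (81.2%) held CCAAT, both strands counted. In the replication genes the shares were 40.0%, 20.0% and 62.2% of 45, and in all measured genes with a window 3.48%, 17.3% and 41.7%. These shares are a description of 300-base windows and were not tested.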
